A study of Arabidopsis thaliana with 6 samples.

Results

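Phototropins are the blue-light receptor kinases of plants, and the genes described here are both Arabidopsis phototropin genes, PHOT1 (AT3G45780) and PHOT2 (AT5G58140), with 6 genes of proteins known to act with them in phototropism. These are NPH3 (AT5G64330) and RPT2 (AT2G30520), which found a family of plant-specific scaffold and adaptor proteins, and the PHYTOCHROME KINASE SUBSTRATE genes PKS1 (AT2G02950), PKS2 (AT1G14280), PKS3 (AT1G18810) and PKS4 (AT5G04190). The members were taken by locus, and all 8 were on the array, out of 32627 genes. They had 10 of its 37118 transcript models, because PHOT2 and NPH3 have more than 1 model each.

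Root RNA of Arabidopsis thaliana was hybridised to 6 one-colour arrays, 3 for lit roots and 3 for dark roots. Seedlings of both groups had grown for 12 days on diluted Murashige and Skoog medium with their shoots under white light (75 µmol/m2/s). The roots of the first group, the control in the labels, shared that light, and those of the second, the treatment, were kept dark. Each array came from a separate plate; the sources used here do not give the ecotype or the number of plants behind each array.

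In blue light the LOV domains of a phototropin switch on its kinase, and the receptor acts at the plasma membrane with NPH3, a BTB-domain protein that recruits a cullin 3 ubiquitin ligase. Auxin is then redistributed across the organ, so that shoots bend toward light and Arabidopsis roots bend away from it. RPT2, named for root phototropism, and the PKS proteins, which bind phytochrome A and phototropin complexes, adjust this response, and PKS1 is known to act in the bending of roots away from light. Phototropins also position chloroplasts and open stomata.

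Lit roots had higher levels of PKS1 and RPT2 transcripts, while PHOT1, PHOT2 and NPH3 did not pass the test. PKS1 was 2.23-fold and RPT2 1.72-fold higher in light. PKS2 and PKS4 lay lower in light on every array, by 0.66 and 0.97 on the log2 scale, without passing the test. In limma, 2 of the 8 genes rose and 0 fell at an adjusted p of 0.05, and 6 were not called; of all genes, 5.73% were called, 3.27% upward and 2.46% downward. Without light replicate 3 both stayed called, without light replicate 1 only PKS1 did, and without any other single array neither passed, although both kept their direction. At an unadjusted p under 0.05, 4 of the 8 differed, PKS1 and RPT2 upward and PKS2 and PKS4 downward, against 21.2% of all genes. The median difference of the 8, light minus dark, was -0.04, and that of all genes was -0.01. All values are log2 array signals. Because each probe has its own brightness, genes are compared by their differences between groups and not by their levels.

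**Figure D1:**
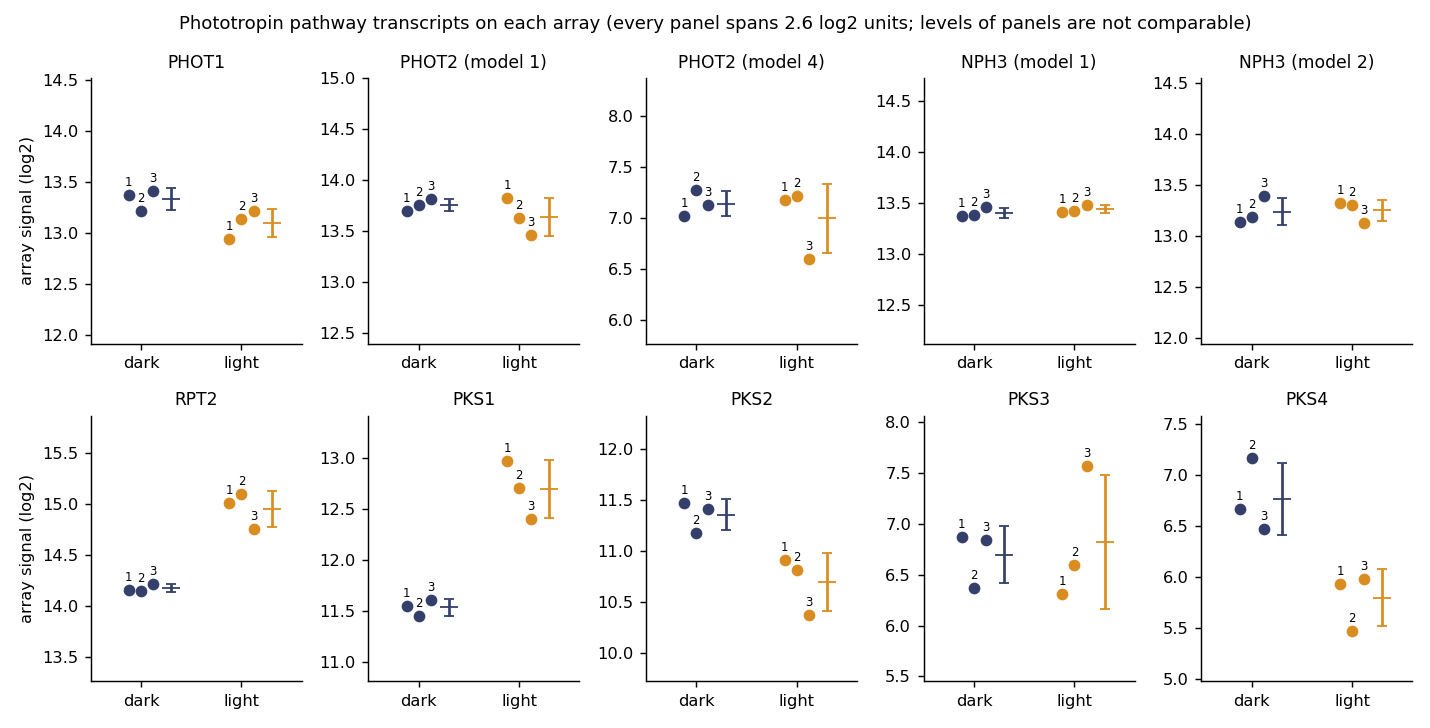
Array signal (log2, vertical axes) of each of the 10 transcript models on the 3 dark (blue) and 3 light (orange) arrays, numbered by replicate, with the mean and SD of each group beside the points. The light points of RPT2 and PKS1 lie above all dark points, those of PKS2 and PKS4 lie below them, and the groups of the other 6 models overlap.

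Array values correlated at 0.9885 to 0.9954 within a group and at 0.9807 to 0.9892 between groups, across transcript models. The lowest values within a group were those of light replicate 3 with the other light arrays. That replicate was the light array farthest from the other two for 5 of the 8 genes, against 40.4% of all genes, and the lowest of the light arrays for 4, against 34.8%. The light SD exceeded the dark SD for 6 of the 8, against 62.1% of all genes.

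The labelled tissue was looked at with 13 root and 11 shoot marker genes, but signal of different probes cannot settle a tissue, so their levels are a description. The root markers ranged in dark from 9.91 for the stem cell niche gene WOX5 and 10.89 for the root cap gene FEZ to 15.83 for the Casparian strip gene CASP1, with a median of 12.64. Limma called 0 of 13, against 5.73% of all genes, and 3 had an unadjusted p under 0.05, against 21.2%. These were SCR (-0.34, adjusted p = 0.0603 in limma), SHR (-0.25, adjusted p = 0.224) and GL2 (-0.52, adjusted p = 0.0736). Of the 13, 11 lay lower in light, with a median difference of -0.12 against -0.01 for all genes. The summed level of the root markers was 17.63 to 17.73 on dark and 17.50 to 17.57 on light arrays. The shoot markers, which also include genes active in roots, ranged in dark from 6.37 for YAB1 to 13.82 for the leaf development gene AS1, above most root markers, with a median of 7.60. Of the 11, 6 lay below the 25th percentile of signal and 0 of the 13 root markers did. The table has no detection calls, so none can be given as absent. KNAT1 rose by 1.13 (adjusted p = 0.0147 in limma) and STM fell by 0.84 (adjusted p = 0.0202). Without 1 array, KNAT1 lost its call when any dark array was left out (adjusted p up to 0.0702), and STM lost it without any array except dark replicate 2 (adjusted p up to 0.0894). The summed shoot marker level was 14.16 to 14.30 in dark and 14.35 to 14.59 in light; without KNAT1 it was 13.90 to 14.04 and 13.805 to 13.94. Their part in the differences below was not tested. In such whole-root samples, fewer cells of a type and less RNA per cell cannot be told apart.

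PHOT1, the receptor that mediates phototropism over a wide range of blue-light intensities, was measured by 1 model. Dark replicates 1, 2 and 3 read 13.37, 13.21 and 13.41, and light replicates 1, 2 and 3 read 12.94, 13.13 and 13.21. The groups met at 13.21, the lowest dark and the highest light value. Dark roots averaged 13.33 ± 0.11 and lit roots 13.09 ± 0.14 (SD, n = 3), a difference of -0.24 with a 95% interval of -0.50 to 0.02 (adjusted p = 0.275 in limma).

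PHOT2, which acts in stronger blue light and in the chloroplast avoidance response, had a bright and a dim model. The bright model read 13.70, 13.76 and 13.82 in dark and 13.83, 13.63 and 13.46 in light, so that light replicate 1 was the highest of all arrays and light replicate 3 the lowest. Its difference was -0.12 (95% interval -0.40 to 0.16, adjusted p = 0.634 in limma). The dim model, in the lowest 25% of signal, read 7.02, 7.27 and 7.13 in dark and 7.17, 7.21 and 6.60 in light, again with light replicate 3 lowest. It differed by -0.15 (SE 0.19, adjusted p = 0.738 in limma).

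The phototropins were also compared with each other on the same arrays. Subtraction within an array takes out only what the array adds to both genes. Here the SE of the within-array difference was 0.20, against 0.10 for PHOT1 and 0.11 for PHOT2 alone by the same pooled spread. PHOT1 differed from PHOT2 in its light minus dark value by -0.12, with a 95% interval of -0.66 to 0.43 (exact permutation test, two-sided p = 0.7). The interval leaves room for an unequal response of either sign. With 3 against 3 arrays the smallest p of this test is 0.1, so none of the 8 pairs of members compared in this way could pass.

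NPH3, without which Arabidopsis seedlings lose phototropism, had the smallest difference of the 8 genes. Its brighter model read 13.37, 13.38 and 13.46 in dark and 13.41, 13.42 and 13.48 in light. The arrays of both groups were interleaved within a span of little more than their own spread. The difference was 0.03 with a 95% interval of -0.14 to 0.20 (adjusted p = 0.855 in limma), and the second model differed by 0.01 (95% interval -0.24 to 0.27). The first interval reaches no further than 0.20 in either direction.

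RPT2, the other founder of the NPH3 family, acts in phototropism at higher light intensities. Dark replicates 1, 2 and 3 read 14.16, 14.15 and 14.22, and light replicates 1, 2 and 3 read 15.01, 15.10 and 14.76. All light arrays lay above all dark arrays, and the dark arrays were close together. The mean rose from 14.18 ± 0.04 to 14.96 ± 0.18 (SD, n = 3), a difference of 0.78 (SE 0.11, 95% interval 0.52 to 1.04, adjusted p = 0.0166 in limma). Among all transcript models, 5.18% had a larger absolute difference. In light RPT2 lay within 1 of the highest value of the table, 15.92.

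RPT2 rose more than NPH3 by 0.75 (95% interval 0.41 to 1.09), and the within-array differences of the groups did not overlap (exact permutation p = 0.1, the smallest possible; 0.2 adjusted over the 8 pairs). The call of RPT2 itself was lost in most fits with 1 array left out, which have fewer arrays and fewer calls over all models. Without light replicate 3 it stayed, at 0.88 and adjusted p = 0.0136 in limma. Without dark replicate 1, 2 or 3 or light replicate 1 or 2, the difference was 0.77, 0.77, 0.80, 0.75 and 0.71, with adjusted p = 0.0793, 0.0773, 0.0652, 0.0609 and 0.0550 in limma.

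**Figure D2:**
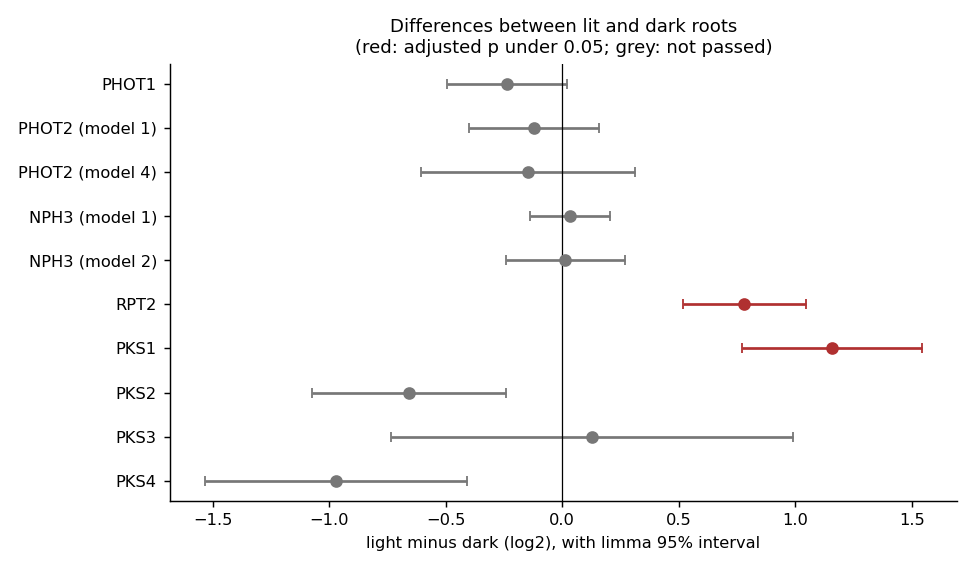
Light minus dark difference (log2, horizontal axis) of the 10 transcript models with limma's 95% interval. PKS1 and RPT2 (red) passed the test; the intervals of PKS2 and PKS4 also lie below 0 without an adjusted p under 0.05, and PKS3 has the widest interval, from -0.73 to 0.99.

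The PKS genes encode proteins that were first found as phosphorylation substrates of phytochrome. PKS1 read 11.55, 11.45 and 11.61 in dark and 12.97, 12.71 and 12.40 in light. Every light array lay above every dark array, with light replicate 1 highest and light replicate 3 lowest of the light arrays. The mean rose from 11.54 ± 0.08 to 12.69 ± 0.29 (SD, n = 3), a difference of 1.16 (SE 0.16, 95% interval 0.77 to 1.54, adjusted p = 0.0158 in limma). This was the largest absolute difference among the 8 genes, and 2.30% of all models had a larger one.

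With 1 array left out, 607 to 905 models were called higher and 158 to 473 lower, against 1196 and 903 with all arrays. The PKS1 call was lost in some of these fits. It stayed without light replicate 1 (1.02, adjusted p = 0.0339) and without light replicate 3 (1.30, adjusted p = 0.0127). Without dark replicates 1, 2 or 3 the difference was 1.16, 1.11 and 1.19, with adjusted p = 0.0727, 0.0730 and 0.0625 in limma. Without light replicate 2 it was 1.15 with adjusted p = 0.0673.

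PKS2, known for a role in leaf flattening and leaf positioning together with phototropins, read 11.47, 11.18 and 11.41 in dark and 10.91, 10.81 and 10.37 in light. All light arrays lay below all dark arrays. The means were 11.35 ± 0.15 and 10.70 ± 0.29 (SD, n = 3), a difference of -0.66 (SE 0.17, 95% interval -1.07 to -0.24) that did not pass (adjusted p = 0.0928 in limma). With a variance prior that follows signal and is robust to outlying genes, adjusted p was 0.0391 in limma. That fit called 1879 models lower, against 903 in the main fit. In the other 13 of 14 alternative settings PKS2 did not pass. With 1 array left out its difference was -0.76 to -0.49, with adjusted p from 0.106 to 0.262 in limma.

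PKS3 was dim and its arrays spread widely. Dark arrays read 6.87, 6.37 and 6.84, and light arrays 6.31, 6.59 and 7.56, so that light replicates 1 and 3 were the lowest and the highest of all 6. The difference was 0.13 (SE 0.35, adjusted p = 0.892 in limma), and without dark replicate 2 or light replicate 3 it was -0.04 and -0.24. No direction can be given for PKS3.

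PKS4, a phototropin 1 substrate known from studies of hypocotyl phototropism, was also dim, with 10.5% of models at or below its mean signal. Dark arrays read 6.66, 7.16 and 6.47, and light arrays 5.93, 5.47 and 5.98. The light arrays all lay below the dark ones, with dark replicate 2 highest and light replicate 2 lowest. The means were 6.76 ± 0.36 and 5.79 ± 0.28 (SD, n = 3), and the difference of -0.97 (SE 0.23, 95% interval -1.53 to -0.41) did not pass (adjusted p = 0.0741 in limma). Over 13 alternative settings it kept its sign, with adjusted p from 0.0555 to 0.183 in limma.

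Within the PKS family the measured differences of PKS1 and of PKS2 and PKS4 had opposite signs, although PKS2 and PKS4 did not pass the test. PKS1 exceeded PKS2 in its light minus dark value by 1.81 (95% interval 1.61 to 2.02) and PKS4, whose probe is near the floor of the scale, by 2.13 (1.15 to 3.11). In both pairs the within-array differences of the groups did not overlap, and the exact permutation p was 0.1, which could not pass (0.2 adjusted over the 8 pairs). PKS1 and PKS2 had the same order of light arrays, replicate 1 above 2 above 3, as did the bright PHOT2 model. For PKS1 and PKS2 the SE of the within-array difference was 0.07, against 0.17 and 0.19 for each alone by the same pooled spread. In every other pair compared, this SE was larger than that of either gene alone. PKS2 and PKS4 differed from each other by 0.31 (95% interval -0.79 to 1.42, exact permutation p = 0.5). The comparisons of PKS3 with PKS1 and PKS2 had intervals that reach across 0, and so did that with PKS4, although its groups did not overlap (1.10, 95% interval -0.30 to 2.50, exact permutation p = 0.1).

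**Figure D3:**
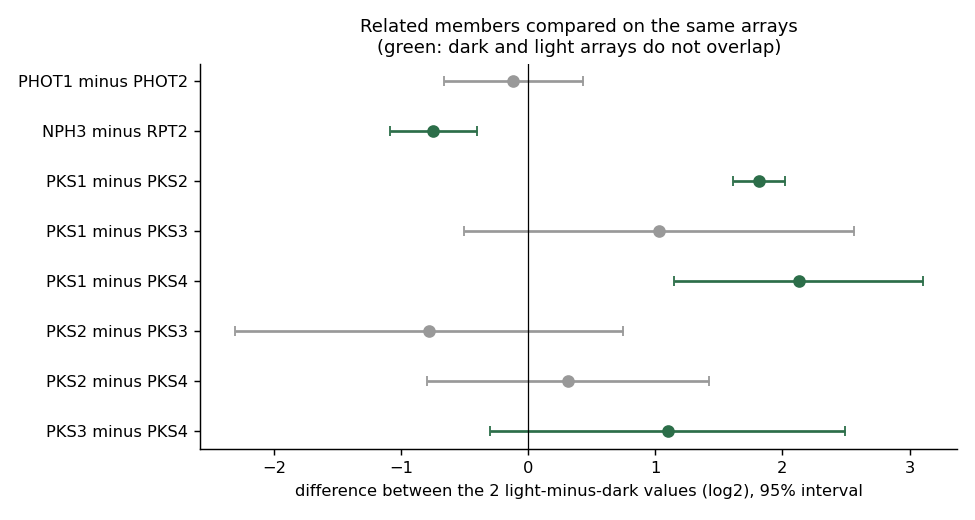
Difference between the light minus dark values of 2 related members (log2, horizontal axis), taken within each array, with a 95% interval from the pooled spread of 3 dark and 3 light arrays. Green pairs have groups that do not overlap; NPH3 minus RPT2 and PKS1 minus PKS2 and PKS4 have intervals clear of 0, and PHOT1 minus PHOT2 spans 0.

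In all, 4 of the 8 genes had groups that did not overlap (RPT2, PKS1, PKS2 and PKS4), where 28.2% of all genes had such groups. Light lay above dark for 2 and below dark for 2, against 12.0% and 16.2% of all genes.

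**Figure D4:**
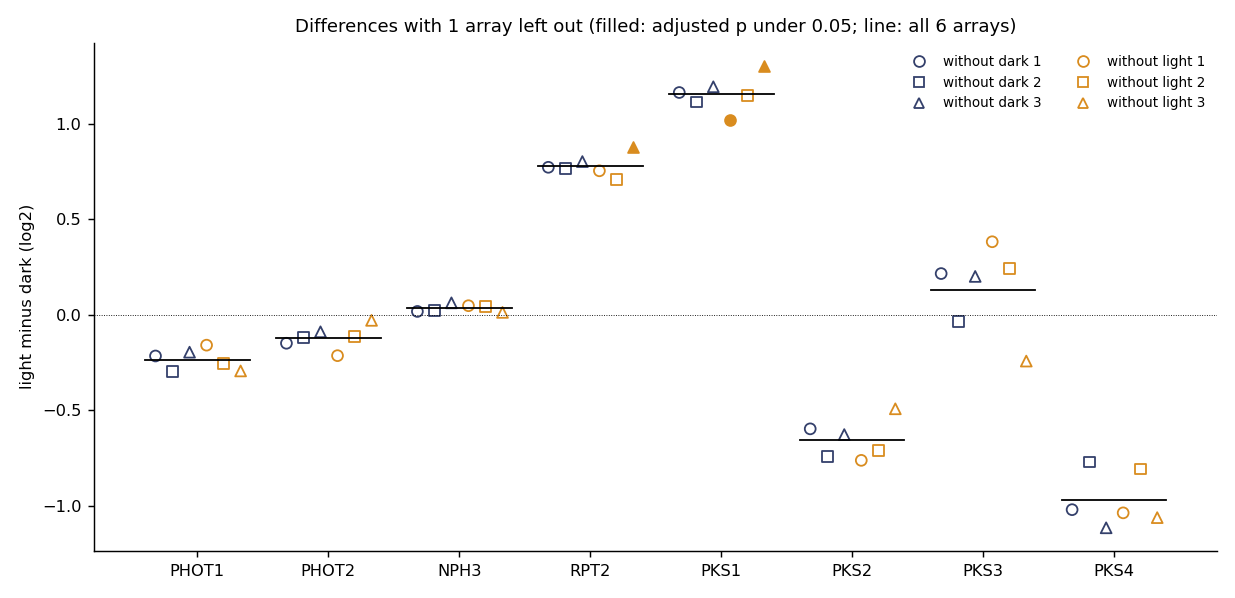
Light minus dark difference (log2, vertical axis) of each gene with 1 of the 6 arrays left out; filled symbols have an adjusted p under 0.05 and the black line is the value from all 6 arrays. RPT2 stays between 0.71 and 0.88 and PKS1 between 1.02 and 1.30, but most of their symbols are open; PKS3 crosses 0.

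The genes whose array profiles came nearest to RPT2 and PKS1 were found by the root mean square difference of values centred on each gene's own mean, over the 6 arrays. The 3 nearest to RPT2 among 32619 other genes were AT1G06000 (0.04), the karrikin receptor gene KAI2 (0.05) and AT3G55840 (0.05). Nearest to PKS1 were the tyrosine aminotransferase gene TAT7 (0.09), AT2G40350 (0.09) and CIA2 (0.10), which encodes a transcription factor of chloroplast protein import genes. KAI2 rose from 13.77, 13.67 and 13.82 in dark to 14.55, 14.59 and 14.24 in light (0.71, adjusted p = 0.0287 in limma), and TAT7 from 11.01, 11.04 and 11.14 to 12.31, 12.29 and 11.96 (1.12, adjusted p = 0.00744). With 1 array left out, TAT7 kept its call in all 6 fits, and KAI2 in 1, that without light replicate 3 (adjusted p up to 0.116 in the others). These likenesses are descriptions, since the search ran over all genes and few arrays.

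The genes next to RPT2 and PKS1 on the chromosome, among protein-coding genes on the array, did not pass. Beside RPT2, AT2G30505 differed by -0.22 and AT2G30530 by 0.11, and beside PKS1, GSTF3 differed by 0.40 (SE 0.40) and MEE12 by 0.02. Beside PKS2, which lay lower in light, AT1G14270 rose by 0.69 (adjusted p = 0.0235 in limma), and beside PKS3, AT1G18830 rose by 0.93 (adjusted p = 0.0350). Their neighbours on the other side, SBH2 (-0.11) and NRP2 (0.06), did not pass. No other neighbour of a member passed, and of all genes 5.73% were called. With 1 array left out, AT1G14270 was called only without light replicate 1 and AT1G18830 only without light replicate 1 or 3, with adjusted p up to 0.101 and 0.131 in the other fits. Neighbours were looked up after the members' values were seen.

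Related genes were followed in 6 lists of 74 genes, all measured. The other LOV-domain genes comprise ZTL, FKF1 and LKP2, light-sensing F-box genes of the clock and flowering pathways, and PLP, and limma called 0 of 4 (1 at an unadjusted p under 0.05, median -0.06). That gene, LKP2, read 14.45, 14.42 and 14.39 in dark and 14.11, 14.14 and 14.16 in light. Its groups were tight and apart, at a difference of -0.28 (SE 0.07, adjusted p = 0.0714). PLP and ZTL differed by -0.12 and 0.06 in their brighter models, and the dimmer ZTL model by 0.18 (SE 0.07, adjusted p = 0.188).

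In the list of NPH3 relatives and the cullin genes CUL3A and CUL3B, limma called 0 of 10 (1 at an unadjusted p under 0.05, median -0.09). The pollen tube gene SETH6 had the lowest p, with a difference of -0.29 (SE 0.08, adjusted p = 0.121), followed by the leaf vein patterning gene DOT3 (0.51, SE 0.22) and NPY1 (-0.15, SE 0.12), which acts with the kinase PID in organ formation. RPT2 was the only gene past the test among itself, NPH3 and the 8 relatives listed, but whether it differs from those relatives was not tested.

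Of 17 auxin transport genes, WAG1 and WAG2 fell, PID rose and 14 did not pass (median -0.05). All 3 encode kinases of the group to which the phototropins belong, and phosphorylate PIN auxin exporters. WAG1 read 12.47, 12.43 and 12.44 in dark and 11.61, 11.48 and 11.53 in light. Its fall of 0.91 (SE 0.07, adjusted p = 0.00293 in limma) kept its call under 15 alternative settings. Among these, a threshold of 0.01 reused the same fit, and median centring and repeated quantile normalization could barely change it. WAG2 read 12.83, 12.94 and 13.08 in dark and 12.05, 12.11 and 12.17 in light. It fell by 0.84 (SE 0.09, adjusted p = 0.00832 in limma), and also kept its call under the 15 settings. Both genes are known to restrain root waving in Arabidopsis. PID read 12.86, 12.74 and 13.20 in dark and 13.61, 13.82 and 14.00 in light, a rise of 0.88 (SE 0.16, adjusted p = 0.0386). Its call was lost without each array except dark replicate 3, with adjusted p up to 0.140. Among genes that did not pass, the auxin transporter partner gene TWD1 differed by 0.17, the vesicle trafficking gene GNOM by -0.19 and the phototropin 1 substrate gene ABCB19 by -0.15. For GNOM and ABCB19 signal in both groups was within 1 of the top of the scale.

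Of 8 auxin response genes limma called 0 (2 at an unadjusted p under 0.05), with a median of -0.13 and differences from -0.25 to 0.17. The repressor gene IAA29 (-0.24), the auxin receptor gene TIR1 (-0.19) and the conjugating enzyme gene GH3.5 (-0.25) had the lowest p, with adjusted p = 0.141, 0.231 and 0.256. The list also holds ARF7 and ARF19, auxin response factors known from phototropism and root branching.

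Of 15 genes of chloroplast movement and stomatal opening, 2 rose and 13 were not called (median -0.06). AT1G64500, which has no symbol in the gene table used, read 8.49, 8.46 and 8.19 in dark and 11.02, 11.04 and 9.87 in light. Light replicate 3 lay well below the other light arrays and still above the dark ones, and the rise was 2.26 (SE 0.34, adjusted p = 0.0214 in limma). It was called only without light replicate 3 among the fits that leave out an array (2.65, adjusted p = 0.00413). The kinesin-like chloroplast movement gene KAC1 rose by 0.61 (SE 0.12, adjusted p = 0.0429) in its brighter model. Its other model differed by 0.46 without passing (adjusted p = 0.125), and the call was lost in each fit with an array left out. PMI1, needed for plastid movement, differed by 1.08 (SE 0.23, adjusted p = 0.0581) and passed without light replicate 3 (1.31, adjusted p = 0.0206). WEB1, of the chloroplast movement speed pathway, differed by -0.40 (SE 0.11, adjusted p = 0.0993), and the guard cell kinase gene BLUS1 by -0.28.

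Of 20 phytochrome and cryptochrome signalling genes, 4 rose and 1 fell, with 15 not called (median -0.04). AT3G52740 had the largest rise, from 10.70, 11.19 and 11.27 to 14.56, 14.41 and 14.33, or 3.38 (SE 0.17, adjusted p = 0.000972 in limma). AT3G44450, in the lower part of the scale, rose by 2.07 (SE 0.26, adjusted p = 0.0128), and was not called without light replicate 2 (1.98, adjusted p = 0.0585). HYH and HY5, light-signalling bZIP transcription factor genes, rose by 2.11 and 1.07 (SE 0.16 and 0.09), and PIF4, a growth-promoting phytochrome partner, fell by 1.64 (SE 0.24, adjusted p = 0.0202). The PIF4 call was lost without dark replicate 1 or 2 or light replicate 1, with adjusted p = 0.0822, 0.0875 and 0.0633. Next in p were SPA1 (0.42, adjusted p = 0.0504), FHL (-0.52, adjusted p = 0.0551) and PIF5 (-0.84, adjusted p = 0.107, whose dimmer model fell by 1.10 with adjusted p = 0.0263). Without dark replicate 1 both PIF5 models passed, the brighter at -1.09 (adjusted p = 0.0408), and without any other array neither did (adjusted p up to 0.0984 for the dimmer one). No phytochrome or cryptochrome receptor gene passed.

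**Figure D5:**
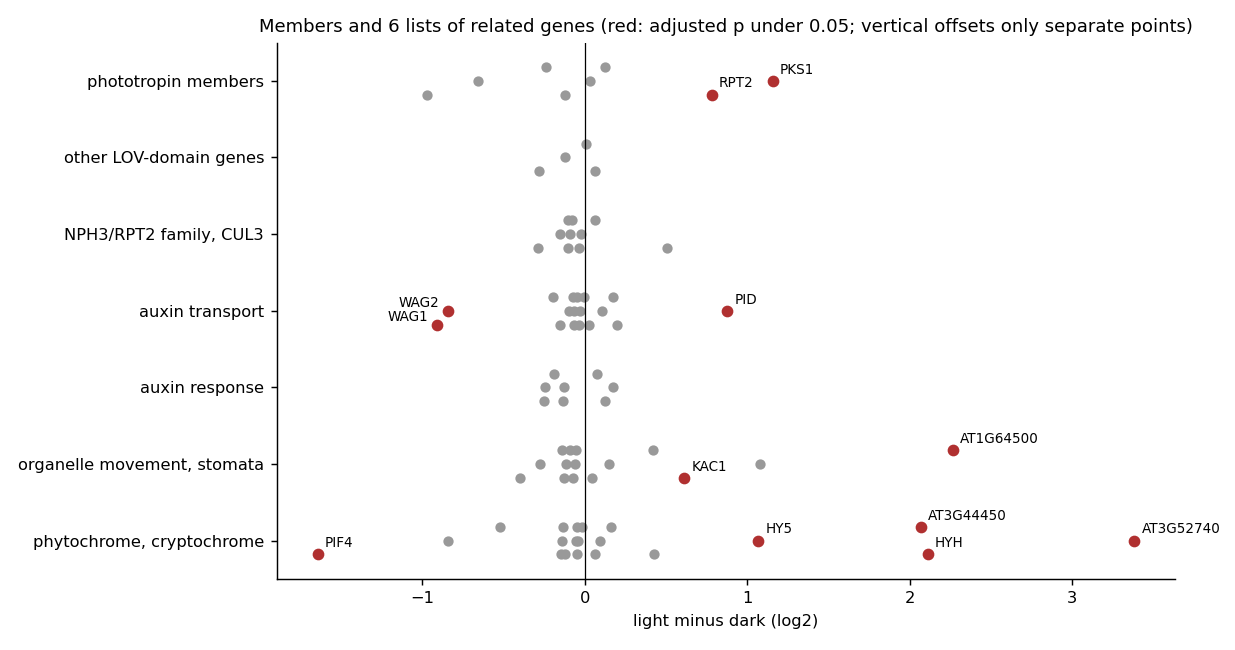
Light minus dark difference (log2, horizontal axis) of the 8 members and of the genes in 6 lists, 1 point per gene; red points passed the test and carry names. The members reach from -0.97 (PKS4) to 1.16 (PKS1), and the NPH3 relatives and auxin response genes lie between -0.29 and 0.51.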

How the data were processed

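Total RNA from 6 root samples was copied to cDNA, labelled with Cy3 and hybridised to NimbleGen arrays, per the labels' protocols. The deposited values are log2 expression per transcript model. After sorting, no array departed from another by more than 0.01, so the authors had quantile normalized these log2 values. The submitters' processing notes name limma without a version; the sources used here do not give background correction, probe summary or annotation release. Arrays have no read depth, and their number, 3 per group, limits the precision.

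The difference light minus dark came from limma 3.58.1 (R 4.3.3; lmFit and eBayes, two-sided, without covariates), run over all 37118 models, with Benjamini-Hochberg adjustment over all of them and a threshold of 0.05. The model with the highest mean stood for a gene. SE and 95% intervals are limma's. Pairs of members were compared by exact permutation of the 6 arrays, with 95% intervals from their pooled spread. The fit was also run on simulated data, and the outcome is not reported here.

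Gene names are those of RefSeq's table for TAIR10.1, which held 31993 of 32627 loci. Of the 74 list genes, 7 have no symbol there and are given by locus. The members, PKS3 (AT1G18810) included, carry the names under which they were selected by locus. All members were named; from each list, genes past the test and up to 3 next by p; and the 3 genes most like each member past the test. The members and lists were chosen with earlier results of these data known. Sequences were not used here. Python 3.11.15, scipy 1.17.1 and matplotlib 3.10.9 were used.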

Additional observations from a re-analysis of the deposited data

How the results depend on the processing

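No member that passed a test in any fit turned direction. Median centring and repeated quantile normalization say nothing about stability here, because the deposited arrays already shared 1 distribution. Same-number arrays of the groups correlated at 0.01, 0.06 and 0.41 in their deviations from the group means, and unlike-number arrays at -0.40 to 0.36. Deviations within a group sum to 0, so these correlations are tied to each other and cannot settle whether the numbers mark pairs. The numbers were not used as pairs in the main test. With a replicate block RPT2 (0.78, adjusted p = 0.0715) and PKS1 (1.16, adjusted p = 0.0636) did not pass, leaving 0 members higher; over all models 668 were higher and 290 lower, and 0 auxin transport genes were higher. At a threshold of 0.01 RPT2 (0.78) and PKS1 (1.16) did not pass, so 0 members were higher, with 491 models higher and 115 lower, 0 auxin transport and 0 chloroplast and stomatal genes higher and 0 phytochrome and cryptochrome genes lower. With the signal-dependent robust variance prior PKS2 passed (-0.66), 1 member was lower, 1852 models were higher and 1879 lower, and 1 LOV-domain, 1 chloroplast and stomatal and 2 phytochrome and cryptochrome genes were lower. With models below the 25th percentile removed 1627 models, 1 LOV-domain gene and 2 phytochrome and cryptochrome genes were lower. With models below the median removed 1596 models were lower. Of the lists, 1 LOV-domain gene, 1 NPH3 relative, 1 chloroplast and stomatal gene and 0 phytochrome and cryptochrome genes were lower there. In that fit 1 chloroplast and stomatal gene was higher. PIF4, AT1G64500 and PKS2 had mean signals below the median, so that fit did not contain them and could not call them. PKS3 and PKS4 were in neither of the filtered fits. Array weights gave 2 lower phytochrome and cryptochrome genes, as did the mean of a gene's models, with 1 chloroplast and stomatal gene higher. Apart from this removal of genes by the filters, the cause of these changes was not tested.

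Without any 1 array RPT2 ranged from 0.71 to 0.88 and PKS1 from 1.02 to 1.30, with 0 to 2 members higher. In those fits 607 to 905 models were higher and 158 to 473 lower, against 1196 and 903 with all arrays. Auxin transport had 0 or 1 and the chloroplast and stomatal list 0 to 2 genes higher, and the phytochrome and cryptochrome list 0 or 1 lower. The fits have fewer samples, and those of PKS3 and PKS4 rest on dim signal.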
